A study of Mus musculus with 24 samples.

Results

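Large domains of H3K27me3, here continuous stretches of at least 30 kb, were chosen by the presence and width of H3K27me3 in the peak lists of 4 mouse gonadal cell populations. Overlapping peaks were joined within each list, joined regions of 30000 bp or more on chromosomes 1 to 19 were kept, and those of the 4 lists were merged where they overlapped. This gave 896 domains. The 4 lists together held 17526 autosomal H3K27me3 regions, of which 16635 held no large domain. Since H3K27me3 chose the domains, its widths below are a description and were not tested. H3K4me3, gene content and base composition were not used in the choice.

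The 24 ChIP-seq samples were H3, H3K4me3 and H3K27me3, 2 replicates each, from embryos of a C57BL/6 x CD1 background. Male (XY) and female (XX) gonadal progenitor cells were sorted at E10.5 by the SF1-eGFP reporter. Sertoli cells, the supporting cells of the testis, were sorted at E13.5 from male gonads by Sox9-CFP, and pregranulosa cells, their ovarian counterparts, from female gonads at E13.5 by TESM-CFP. Gonads were pooled for sorting, so each population is the set of cells that a transgene labels in pooled animals, and stage and reporter changed together. At E13.5 the reporter also differed between the sexes, so sex and reporter cannot be told apart between Sertoli and pregranulosa cells. The labels give no allele other than the reporter. Each of the 8 lists pooled both replicates of a mark in a population, so there is no spread between replicates, and differences between populations were counted without a test. The H3K27me3 lists rested on 6470151 tags (aligned reads) in XY progenitors, 33185400 in XX progenitors and 44446456 in Sertoli cells. The H3K4me3 lists rested on 10162534, 49254553 and 31104760 tags. Tag totals of the pregranulosa lists are not given in the sources used here. Part of any difference in width may follow depth, which was not tested. All 6 Sertoli markers carried H3K4me3 alone in Sertoli cells, and in pregranulosa cells Sox9, Amh, Dmrt1, Dhh and Fgf9 carried both marks and Ptgds neither. Of 6 pregranulosa markers, Wnt4, Rspo1 and Bmp2 carried H3K4me3 alone in pregranulosa cells and both marks in Sertoli cells, while Foxl2, Fst and Lef1 carried both marks in all 4 populations. All marker calls were made within 2 kb on either side of the transcription start site. The paper reports that pregranulosa cells lose H3K27me3 at the start sites of Foxl2 and Lef1, which so wide a window can hide. Of 6 progenitor markers, Gata4, Nr5a1 and Wt1 went from both marks at E10.5 to H3K4me3 alone at E13.5. Lhx9 and Emx2 did so in pregranulosa cells and kept both in Sertoli cells, and Cbx2 carried H3K4me3 alone in XY progenitors and both marks elsewhere. Markers of other cells were mixed. In the order XY progenitors, XX progenitors, Sertoli and pregranulosa cells, H3K4me3 was present at 1, 2, 3 and 3 of 5 germ cell markers, at 1, 1, 1 and 2 of 4 endothelial markers, at 2, 3, 3 and 4 of 4 interstitial markers and at 0 of 3 blood markers in each population. Their part in the results was not tested.

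H3K27me3, trimethylation of lysine 27 of histone H3, is laid down by Polycomb repressive complex 2 and is found over genes that are kept silent. It can spread along a chromosome from sites rich in CpG dinucleotides, where Polycomb complexes are recruited, and in embryos the broadest stretches are known for covering developmental regulators such as the Hox clusters. H3K4me3 marks the start sites of active and poised genes, and a promoter that carries both marks is called bivalent. Enzymes that place H3K4me3 and Polycomb complexes are both drawn to CpG islands, so the mark can appear as islands within a Polycomb domain.

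Sequences of 3 kinds are shown, taken before genes described below or at the centres of domains. All are read from the mm9 (NCBIM37) genome, 5′ to 3′, with each CG dinucleotide in capitals. The first are the 200 bases before the transcription start site (TSS) of Foxf1a, which lies in the widest domain (chr8:123608086-123608285, + strand), of Uncx (chr5:140019248-140019447, + strand) and of Pax2 (chr19:44830339-44830538, + strand). These 3 domains were marked over most of their length in all 4 populations.
Foxf1a: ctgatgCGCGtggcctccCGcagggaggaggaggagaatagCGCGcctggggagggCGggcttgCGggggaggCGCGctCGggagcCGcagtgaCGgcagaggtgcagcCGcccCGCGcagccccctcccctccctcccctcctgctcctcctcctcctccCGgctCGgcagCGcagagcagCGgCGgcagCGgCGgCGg
Uncx: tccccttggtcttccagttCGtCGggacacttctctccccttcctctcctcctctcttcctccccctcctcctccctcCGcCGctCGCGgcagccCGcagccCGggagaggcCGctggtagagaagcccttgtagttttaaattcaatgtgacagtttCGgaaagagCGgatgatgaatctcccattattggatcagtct
Pax2: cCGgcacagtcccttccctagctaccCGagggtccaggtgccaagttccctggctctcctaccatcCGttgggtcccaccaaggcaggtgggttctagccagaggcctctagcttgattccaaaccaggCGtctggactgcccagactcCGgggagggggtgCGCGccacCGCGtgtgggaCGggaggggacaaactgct
The second are the 200 bases before genes whose domains differed between stages or sexes: Gata4 (chr14:63890530-63890729, - strand), Rspo1 (chr4:124663474-124663673, + strand), Tox (chr4:6918705-6918904, - strand) and Slc30a1 (chr1:193730446-193730645, + strand).
Gata4: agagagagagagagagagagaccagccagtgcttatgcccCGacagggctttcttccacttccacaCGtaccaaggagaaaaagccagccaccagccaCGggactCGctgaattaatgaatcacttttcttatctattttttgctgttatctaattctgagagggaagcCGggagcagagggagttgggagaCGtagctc
Rspo1: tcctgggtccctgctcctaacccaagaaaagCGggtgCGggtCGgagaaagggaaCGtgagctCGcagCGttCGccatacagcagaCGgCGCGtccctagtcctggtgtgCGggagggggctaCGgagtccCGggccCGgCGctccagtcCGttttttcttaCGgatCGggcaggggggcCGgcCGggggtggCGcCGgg
Tox: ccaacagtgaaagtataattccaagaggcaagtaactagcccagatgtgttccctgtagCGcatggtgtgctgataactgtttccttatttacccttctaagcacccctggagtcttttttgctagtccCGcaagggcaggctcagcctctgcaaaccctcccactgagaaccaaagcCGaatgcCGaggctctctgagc
Slc30a1: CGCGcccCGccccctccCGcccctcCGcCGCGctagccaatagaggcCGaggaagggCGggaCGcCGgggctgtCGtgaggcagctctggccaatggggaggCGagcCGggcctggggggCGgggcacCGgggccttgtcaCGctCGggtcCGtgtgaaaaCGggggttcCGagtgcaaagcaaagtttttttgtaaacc
The third are 200 bases at the centre of 3 domains that hold no protein-coding TSS, for contrast (chr9:61477702-61477901, chr9:61157674-61157873 and chr11:48491480-48491679, all given on the + strand).
Domain near Tle3: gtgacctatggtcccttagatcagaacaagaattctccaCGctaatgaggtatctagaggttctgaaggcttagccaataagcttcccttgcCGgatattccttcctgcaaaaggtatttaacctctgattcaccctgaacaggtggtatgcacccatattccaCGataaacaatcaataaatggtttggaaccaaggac
Domain near Gm10655: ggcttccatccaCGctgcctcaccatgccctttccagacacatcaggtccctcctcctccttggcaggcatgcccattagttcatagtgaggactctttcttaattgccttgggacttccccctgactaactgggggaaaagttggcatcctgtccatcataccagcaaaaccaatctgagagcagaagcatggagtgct
Domain near Gnb2l1: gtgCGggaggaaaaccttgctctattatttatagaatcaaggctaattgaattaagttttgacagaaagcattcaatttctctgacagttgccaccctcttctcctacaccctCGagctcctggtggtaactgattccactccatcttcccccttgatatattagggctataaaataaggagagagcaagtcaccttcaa
The CG count of these stretches was 23 before Foxf1a, 22 before Rspo1, 21 before Slc30a1, 11 before Uncx, 10 before Pax2, 6 before Gata4 and 4 before Tox. At the centres of the domains without a protein-coding TSS it was 3, 1 and 2. These are descriptions of the letters in those windows.

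The 896 domains covered 44.7 Mb, or 1.81% of the autosomes. Their median width was 41368.5 bp and they ranged from 30000 to 346218 bp. Of them, 266 (29.7%) were at least 50 kb wide, 48 at least 100 kb and 10 at least 150 kb. Chromosome 11 held the most domains for its length (88, or 7.22 per 10 Mb), and chromosome 10 the fewest (22, or 1.69 per 10 Mb). At the threshold, the narrowest domains were 30000 bp in Sertoli cells (chr4:47273933-47303932, nearest gene Col15a1), 30003 bp in pregranulosa cells (chr11:112721943-112751945, nearest gene Sox9) and 30008 bp in pregranulosa cells (nearest gene Lrch1). The widest regions left out were 29988 bp over Grb7, 29987 bp, and 29939 bp over Bcl11b, each in Sertoli cells.

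A domain reached 30 kb most often in 1 population and no other. Single lists reached it in 548 domains (61.2%, exact Clopper-Pearson 95% interval 57.9 to 64.4%; all intervals given are of this kind and cover counting error only). Of these, 299 reached 30 kb in Sertoli cells, 219 in pregranulosa cells, 16 in XY progenitors and 14 in XX progenitors. All 4 lists reached it in 167 domains (18.6%), 3 lists in 59 and 2 lists in 122. By population, XY progenitors reached 30 kb in 236 domains, XX progenitors in 246, Sertoli cells in 622 and pregranulosa cells in 533. The H3K27me3 lists also differed in form. The pregranulosa list held 12609 peaks over all chromosomes and 10939 joined autosomal regions. The XY progenitor, XX progenitor and Sertoli lists held 36469, 74001 and 74154 peaks and 9534, 7805 and 13105 joined autosomal regions. The part of depth and of list form in these numbers was not tested.

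**Figure D1:**
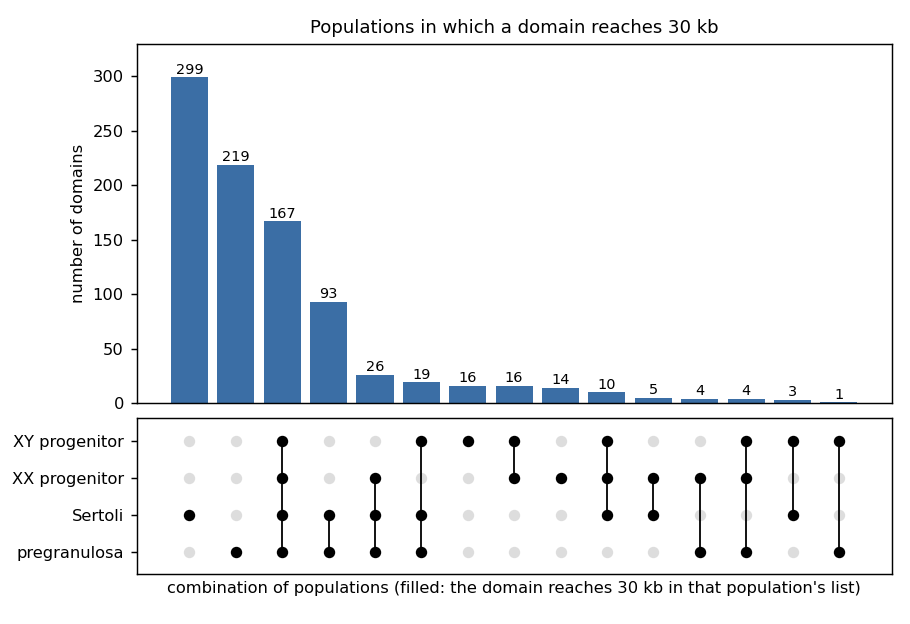
Number of large H3K27me3 domains (vertical axis) for each combination of populations in which the domain reached 30 kb, with the populations of each combination as filled circles below its bar. Sertoli cells alone (299) and pregranulosa cells alone (219) were the commonest combinations, followed by all 4 populations (167).

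A domain that fell short of 30 kb in a population usually still carried H3K27me3 there. The median domain was marked over 55.7% of its length in XY progenitors, 56.0% in XX progenitors, 99.2% in Sertoli cells and 91.5% in pregranulosa cells. No H3K27me3 was called in 171 domains in XY progenitors, 201 in XX progenitors, 48 in Sertoli cells and 40 in pregranulosa cells. Some H3K27me3 was present in all 4 populations in 670 domains (74.8%), and 415 (46.3%, 43.0 to 49.6%) were marked over 50% or more of their length in all 4.

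The progenitors of both sexes carried nearly the same pattern. In 676 domains (75.4%) the share marked differed by no more than 10 percentage points between XY and XX progenitors, and it differed by 50 points or more in 2. The 676 include domains unmarked in both, as 171 carried no H3K27me3 in XY progenitors and 201 none in XX progenitors. From XY progenitors to Sertoli cells, 745 domains gained bases and 110 lost bases, with a rise of 50 points or more in 264 and a fall of that size in 13. From XX progenitors to pregranulosa cells, 717 gained and 152 lost, with 258 and 18 large changes. Between the E13.5 populations, 128 domains were at least 50 points higher in Sertoli cells and 126 at least 50 points higher in pregranulosa cells. Of the 896 domains, 611 reached 30 kb only at E13.5 and 46 only at E10.5. The rule therefore fixes in part the excess of gains over losses between stages. In the 167 domains that reached 30 kb in every list the change was small, which their choice also fixes in part. Their median marked length was 48263 bp in XY progenitors, 48521 bp in XX progenitors, 52079 bp in Sertoli cells and 49798 bp in pregranulosa cells, and the median ratio was 1.10 for Sertoli cells over XY progenitors and 1.06 for pregranulosa cells over XX progenitors.

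**Figure D2:**
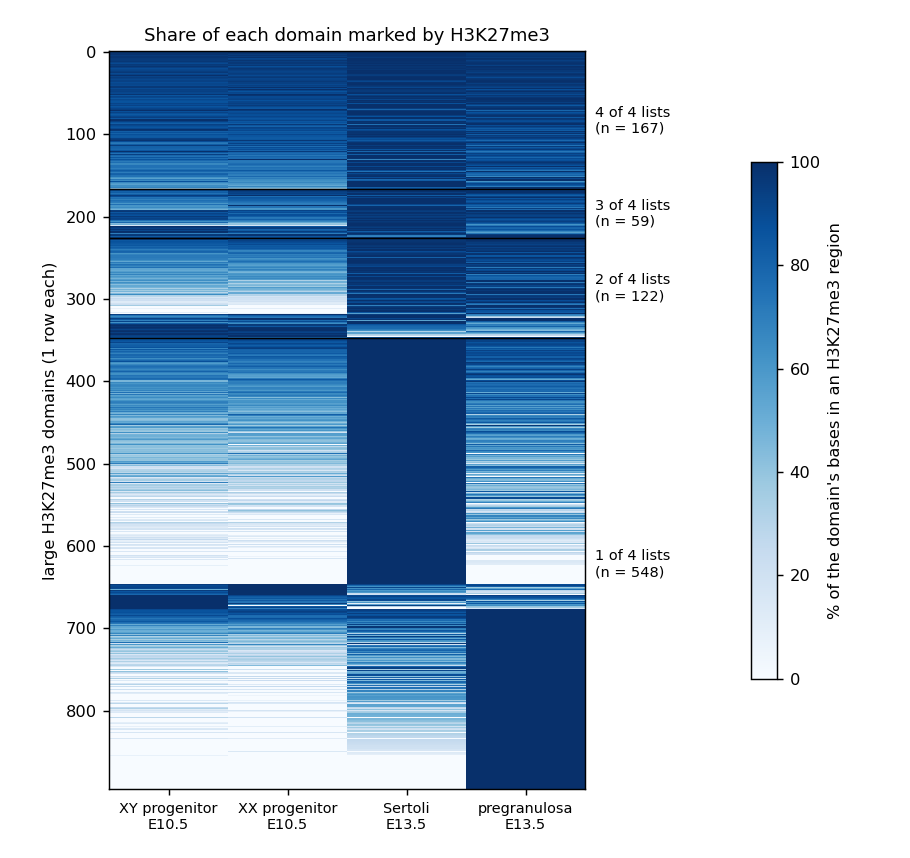
Each row is 1 of the 896 domains and each column a population. The colour gives the percentage of the domain's bases in an H3K27me3 region, and rows are grouped by the number of lists in which the domain reached 30 kb. The 167 domains of all 4 lists were mostly dark in every column, while many of the 548 domains of 1 list were pale in both progenitor columns. Among the 167, the HoxB domain was marked over only 39.4% in XY progenitors and 39.0% in XX progenitors.

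The domains were poor in gene starts for their length compared with other H3K27me3 regions and rich compared with the genome. They held 809 protein-coding TSSs, or 3.78% of the 21418 on the autosomes, at 18.1 per Mb. Other H3K27me3 regions held 30.4 per Mb and the autosomes 8.66 per Mb. A protein-coding TSS lay in 495 domains (55.2%, 51.9 to 58.5%). Of those, 324 held 1, 110 held 2 and 61 held 3 or more, up to 14 in the HoxA domain. Of the bases in the domains, 4.87% were exonic, 35.2% intronic and 59.9% outside genes, compared with 4.79%, 36.7% and 58.5% of other H3K27me3 regions. The genes in the domains were short, with a median length of 9907 bp against 15535 bp for all autosomal protein-coding genes, and 551 of the 809 (68.1%) lay wholly inside their domain.

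Listed developmental transcription factors were 178 of the 809 protein-coding genes in domains (22.0%). All 41 listed Hox and Evx genes, which pattern the body axis, had their TSS in a domain. So did 11 of 14 Nkx genes, 7 of 9 Pax genes, 45 of 58 other homeobox genes, 17 of 26 Fox genes, 6 of 10 Pou genes, 7 of 12 LIM homeobox genes, 9 of 16 T-box genes, 9 of 18 Gata, Zic, Gli and Sall genes and 14 of 40 basic helix-loop-helix lineage genes. With the Sox genes and the remaining homeobox list included, and without nuclear receptors, 178 of 273 listed genes (65.2%, 59.2 to 70.8%) lay in domains, against 3.78% of all autosomal protein-coding genes. Of 18 housekeeping genes 0 did, with an upper limit of 18.5%. The lists were chosen with earlier results of these data known. Neighbouring genes share a domain, as the 41 Hox and Evx genes did in 6 domains, so the intervals count linked genes as independent. The share of listed genes in other H3K27me3 regions is not given here. The counts were 4 of 17 for Sox genes (Sox2, Sox14, Sox17 and Sox21), 3 of 21 for nuclear receptors and 8 of 59 for genes of the Fgf, Bmp, Tgfb and Hedgehog signals. The Polycomb group contributed 3 of 29 genes. Genes of this kind lay mostly in the domains shared by all populations: listed transcription factors made up 39.6 of every 100 protein-coding genes in domains of 4 lists and 6.93 of every 100 in domains of 1 list.

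**Figure D3:**
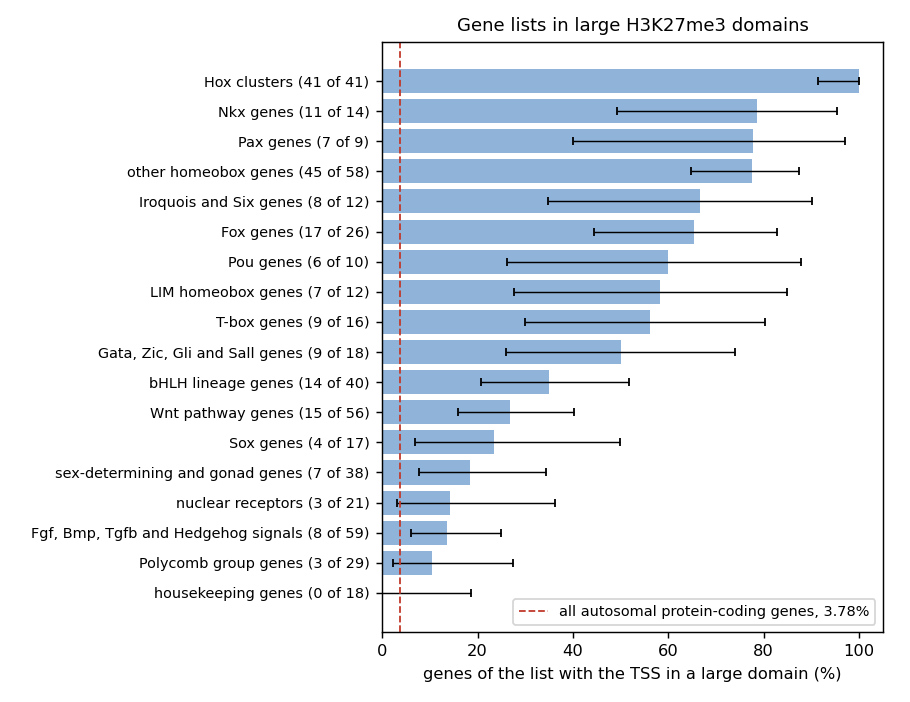
Percentage of each gene list (horizontal axis) with the TSS in a large domain, with exact 95% intervals as error bars and the count of genes beside each name. The dashed line is the share of all autosomal protein-coding genes (3.78%). Homeobox lists stand at the top, with 41 of 41 Hox genes, and housekeeping genes at 0 of 18.

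The widest domain lay at chr8:123275763-123621980 and held the TSS of Foxf1a, a forkhead factor of visceral mesenchyme. Its 346218 bp were marked over 313177 bp in XY progenitors, 314063 bp in XX progenitors, 346218 bp in Sertoli cells and 286986 bp in pregranulosa cells. It formed a single region in Sertoli cells and 9, 4 and 10 separate regions in XY progenitors, XX progenitors and pregranulosa cells. The domain over Prdm16, a transcription factor of brown fat, spanned 298987 bp (chr4:153771734-154070720), with 284699, 287554, 298987 and 268136 bp marked in the same order of populations, which is kept below. The domain over Rnf220, a ubiquitin ligase, was widest in pregranulosa cells (chr4:116961270-117215350; 193053, 184416, 231223 and 249309 bp). The Pax2 domain, over a regulator of kidney and genital duct development, changed from 114352 and 115450 bp to 150021 and 150012 bp. That of Uncx, a somite homeobox gene, went from 125406 and 126321 bp to 141639 and 137891 bp.

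The Hox clusters were longer at E13.5 than at E10.5 in both sexes. The HoxA domain (chr6:52091753-52286176) carried 116514 bp of H3K27me3 in XY progenitors, 112980 bp in XX progenitors, 191902 bp in Sertoli cells and 193821 bp in pregranulosa cells. The HoxB domain (chr11:96107436-96248700) carried 55715, 55061, 125510 and 138194 bp. H3K4me3 moved the other way. It covered 80827 and 108214 bp of the HoxA domain in XY and XX progenitors and 37290 and 43640 bp in Sertoli and pregranulosa cells, and 84584 and 105997 bp against 35749 and 40340 bp of the HoxB domain. Over the 41 Hox and Evx start sites, H3K4me3 without H3K27me3 was found at 12 in XY progenitors, 14 in XX progenitors, 0 in Sertoli cells and 3 in pregranulosa cells, and both marks at 26, 26, 36 and 35. H3K4me3 alone was found at 53, 60, 21 and 33 of all 809 TSSs in domains, also fewer at E13.5, and at 43.9%, 45.3%, 46.3% and 47.5% of all autosomal protein-coding TSSs. Of the 896 domains, 611 reached 30 kb only at E13.5, so the lower counts in domains at that stage are fixed in part by the rule. The lists pool 41 genes from 6 domains, so these counts are not independent of one another.

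**Figure D4:**
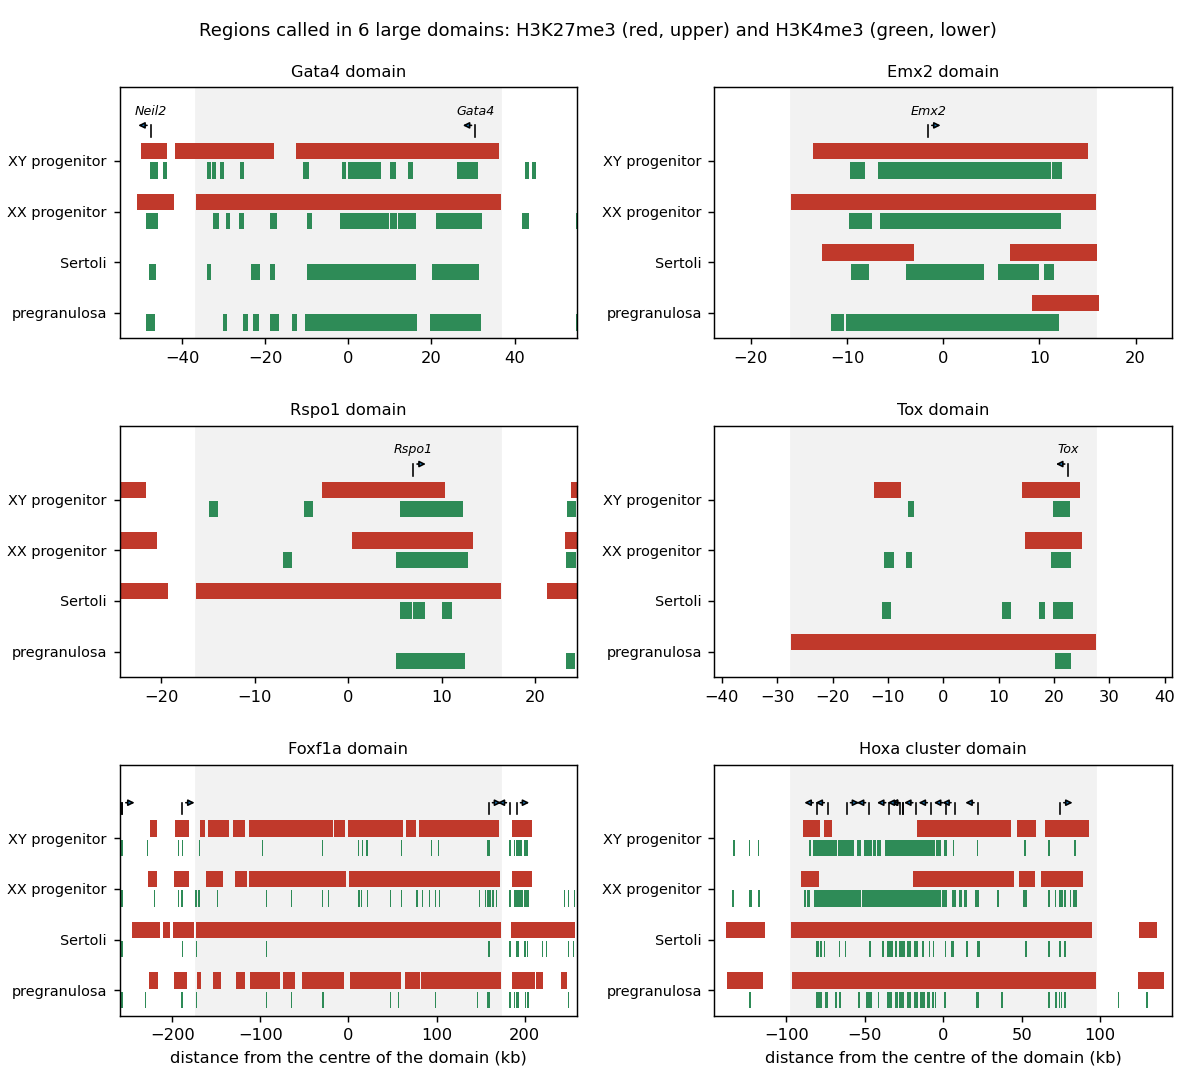
Regions called for H3K27me3 (red, upper row) and H3K4me3 (green, lower row) in each population, in kb from the domain's centre (horizontal axis), with the domain shaded and gene starts as arrows. In the Gata4 domain H3K27me3 covers 67620 and 73461 bp in the progenitors and 0 bp at E13.5, in Rspo1 it covers 0 bp in pregranulosa cells, and in Tox it covers 55097 bp in pregranulosa cells and 0 bp in Sertoli cells.

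Of 38 listed genes of sex determination and gonad development, 7 had their TSS in a domain, among them Gata4, Emx2, Foxl2, Rspo1, Irx5 and Hoxd13. Gata4, a transcription factor needed to form the genital ridge, lay in a domain (chr14:63823270-63896730) that carried 67620 bp of H3K27me3 in XY progenitors and 73461 bp in XX progenitors and none in Sertoli or pregranulosa cells. H3K4me3 in the same domain covered 22238, 34889, 42106 and 46110 bp, more at E13.5 than at E10.5 in both sexes. Emx2, a homeobox gene of the urogenital ridge, lost H3K27me3 to a smaller extent (chr19:59518885-59550607; 28542, 31723, 18541 and 6671 bp). The domain with Foxl2 and Faim stayed near its full length throughout, at 36975, 40185, 40986 and 40321 bp (chr9:98845526-98886872). It was marked in 2, 1, 1 and 2 separate regions, and H3K4me3 covered 6303, 11354, 7546 and 18405 bp of it, most in pregranulosa cells. The paper reports loss of H3K27me3 at the Foxl2 TSS and gene body in pregranulosa cells, which the marked length of a whole domain can hide. The Irx5 domain, over an Iroquois homeobox gene, carried 39983, 32399, 39088 and 34996 bp.

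Wnt pathway genes, whose signals promote ovarian development, had 15 of 56 listed genes in 11 domains. Their domains carried more H3K27me3 in Sertoli cells than in pregranulosa cells for 12 of the 15 genes, and for 580 of all 809 genes in domains. The part of depth in these counts was not tested. Rspo1, an activator of Wnt signaling, lay in a domain (chr4:124640411-124673032) with 13144, 12920, 32622 and 0 bp marked. H3K4me3 covered 8717, 8714, 3645 and 7405 bp of it, least in Sertoli cells. Sp5, a Wnt target, followed the same pattern (chr2:70289918-70321667; 19482, 23936, 31750 and 0 bp). Sfrp1, a secreted Wnt antagonist, was also widest in Sertoli cells (chr8:24490172-24545551; 10002, 6266, 55380 and 17556 bp). Znrf3, a ubiquitin ligase that removes Wnt receptors, was the 1 listed gene of the pathway whose domain reached 30 kb in pregranulosa cells and not in Sertoli cells, at 5001, 5001, 6308 and 34366 bp (chr11:5322818-5357183). The domain of Wnt6 and Wnt10a ran against the majority in both lineages, with 54071, 54021, 29438 and 26017 bp.

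Genes known to be expressed in a sex-specific way were set against the domains, using lists of Sertoli-specific and pregranulosa-specific genes from published expression profiling. Sertoli-specific genes made up 15 of the 82 genes (18.3%, 10.6 to 28.4%) in domains that reached 30 kb in pregranulosa cells and not in Sertoli cells, among them Tox, Slc30a1, Zfp608, Lrig1 and Znrf3. They made up 3 of the 263 genes (1.14%) in domains of the reverse kind, and 6.26% of all autosomal protein-coding genes. Pregranulosa-specific genes made up 12 of 263 (4.56%, 2.38 to 7.83%) in domains that reached 30 kb in Sertoli cells and not in pregranulosa cells, among them Rspo1, Timp2 and Ephb2, and 1 of 82 (1.22%) in the reverse kind. This is close to their 5.05% of all autosomal protein-coding genes. Over all domains, 27 of 809 genes (3.34%) were Sertoli-specific and 21 of 809 (2.60%) pregranulosa-specific, both below the share among all genes. Genes of 1 domain share its H3K27me3, so they do not count as independent.

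Some domains were marked mainly in 1 of the E13.5 populations. The domain over Tox, an HMG-box factor, carried 15343, 10284, 0 and 55097 bp (chr4:6868564-6923660), and that over Slc30a1, a zinc exporter, 5001, 0, 19217 and 78556 bp (chr1:193656995-193735550). That over Gpr39, a G protein-coupled receptor, carried 48300 bp in pregranulosa cells and none in the other 3 lists. In the other direction, the domain over Timp2, a metalloproteinase inhibitor, carried 50576 bp in Sertoli cells and none elsewhere (chr11:118190105-118240680). That over Ccdc85c carried 10002, 5001, 87624 and 0 bp (chr12:109449568-109537191), and that over the ephrin receptor gene Ephb2 17174, 14218, 98055 and 29405 bp (chr4:136327413-136425467). The domain over the keratin genes Krt80, Krt7, Krt83, Krt81 and Krt86 carried 25669, 23944, 138078 and 29082 bp (chr15:101188372-101326449). Keratin copies are alike, so reads may have been split or shared between them.

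Domains without a protein-coding TSS were as many as 401 (44.8%). Of these, 149 overlapped the body of a protein-coding gene, and 315 of all 896 domains (35.2%) held no annotated TSS of any kind. The median distance from such a domain to the nearest protein-coding TSS was 67618 bp, and 164 of the 401 had one within 50 kb. They made up 56.6% of the domains that reached 30 kb in 1 list and 16.2% of those that reached it in 4. The widest lay 150701 bp from Tle3, a Groucho-family corepressor, with 34250, 35926, 213822 and 153190 bp marked (chr9:61370891-61584712). The domain near Gnb2l1 (chr11:48472569-48510590), which held 1 annotated TSS of another kind, had 38022, 26832, 0 and 6257 bp marked and no H3K4me3 in any list.

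Domains also lay in chains. Another domain lay within 100 kb of 368 of the 896 (41.1%), and 184 domains formed 49 chains of 3 or more. The longest held 9 domains near Tle3 (chr9:60860006-61736412), which covered 785012 of 876407 bp (89.6%). One of 8 domains held Tbx3, Tbx5 and Lhx5, regulators of limb, heart and neural development (chr5:120054570-120916184). Another of 5 held Foxf1a and Foxc2 (chr8:123203488-123927753).

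H3K4me3 islands, H3K4me3 regions that overlapped a domain by at least 1 bp, were found in most domains. They lay in 784 domains in XY progenitors (87.5%), 829 in XX progenitors (92.5%), 718 in Sertoli cells (80.1%) and 817 in pregranulosa cells (91.2%). All 4 populations had an island in 670 domains and none did in 23. Islands numbered 5.47, 6.91, 4.52 and 5.86 per 100 kb of domain, fewer in each population than the 6.19, 7.59, 5.82 and 6.95 per 100 kb of other H3K27me3 regions. Those regions were mostly shorter, so overlaps at their edges weigh more in a count per 100 kb. They also held more protein-coding TSSs, at 30.4 against 18.1 per Mb. The part of either in the difference was not tested. Islands covered 9.41%, 15.84%, 8.31% and 11.4% of the domains' bases, against 10.2%, 15.66%, 10.9% and 13.49% of the bases of other H3K27me3 regions, so in XX progenitors the share was no lower in domains.

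At gene starts, H3K4me3 was present within 2 kb of 635 (78.5%), 699 (86.4%), 612 (75.6%) and 681 (84.2%) of the 809 TSSs in domains. Its share over all autosomal protein-coding TSSs was 64.8%, 66.7%, 65.5% and 67.0%, and in other H3K27me3 regions 83.8%, 87.3%, 83.7% and 86.8%. H3K4me3 was thus more frequent than over all genes. Its share was lower than at other H3K27me3 TSSs, by most in Sertoli cells and XY progenitors. Genes of 1 domain are linked, so the 809 TSSs are not independent, and these differences were not tested. Both marks were present at 582 (71.9%), 639 (79.0%), 591 (73.1%) and 648 (80.1%), against 20.9%, 21.4%, 19.2% and 19.6% of all autosomal TSSs. H3K27me3 is part of that count and chose the domains, so the excess of both marks is fixed in part by the rule. Start sites with H3K27me3 alone numbered 125, 61, 191 and 106 of 809 (15.5%, 7.54%, 23.6% and 13.1%), against 7.78%, 4.05%, 14.2% and 7.28% in other H3K27me3 regions and 2.76%, 1.48%, 4.99% and 2.49% over all autosomal TSSs. Of the 582 with both marks in XY progenitors, 517 (88.8%) kept both in Sertoli cells, compared with 74.0% of all autosomal TSSs with both. Of the 639 in XX progenitors, 592 (92.6%) kept both in pregranulosa cells, compared with 79.9%. A domain that reached 30 kb at E13.5 carries H3K27me3 there by the rule, so these shares are descriptions.

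**Figure D5:**
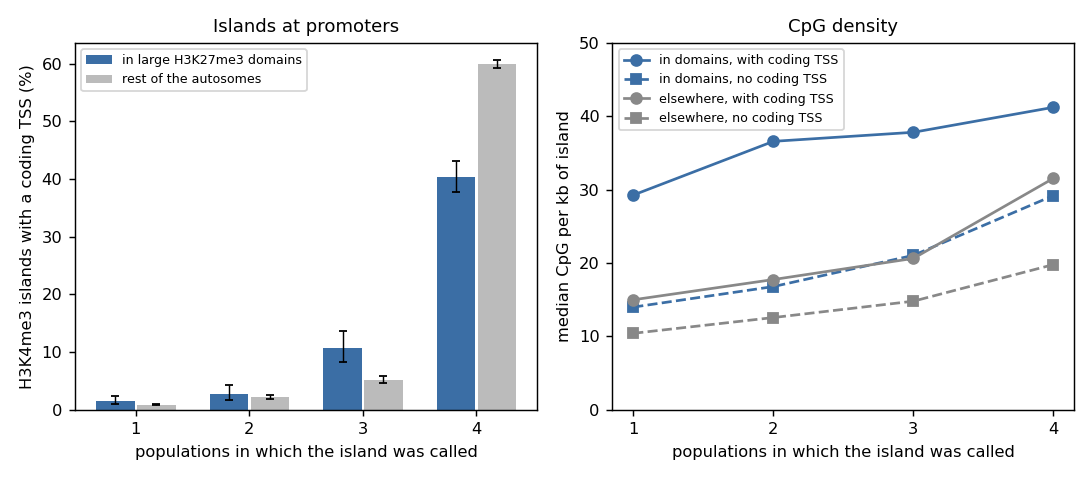
Left, percentage of H3K4me3 islands that hold a protein-coding TSS, by the number of populations in which the island was called, with exact 95% intervals. Right, median CpG per kb of islands with and without such a TSS. Islands of 4 populations held a TSS in 40.5% of cases in domains and 59.9% elsewhere, and were richer in CpG in domains.

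Islands shared by all populations differed from those of 1 population. Of 3932 islands merged over the populations, 1288 were called in all 4, with a median width of 3009.5 bp, a protein-coding TSS in 40.5% and a median of 34.7 CpG per kb. Those called in 1 population numbered 1429, were 1001 bp wide at the median, held a TSS in 1.54% and had 14.0 CpG per kb. Of the 1429, 304 were of XY progenitors, 653 of XX progenitors, 155 of Sertoli cells and 317 of pregranulosa cells. XX progenitors had the most H3K4me3 tags of the lists with a given total. A width of 1001 bp was also the lower quartile of every H3K4me3 list. The part of depth in these classes was not tested. Outside the domains, islands of 4 populations held a TSS in 59.9% and had 27.3 CpG per kb. Without a protein-coding TSS, islands of 4 populations had a median of 29.2 CpG per kb in domains and 19.8 elsewhere. With one, the values were 41.2 and 31.5. The domains as a whole had 14.7 CpG per kb, 11.1 outside their islands, against 13.7 in other H3K27me3 regions and 8.51 over the autosomes. Before the start sites in domains, 50.1% of the 200-base windows held 10 or more CG, against 51.9% in other H3K27me3 regions and 43.3% over all autosomal protein-coding genes.

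H3K4me3 did not shift with H3K27me3 in the same way in both lineages. From XY progenitors to Sertoli cells, fewer bases of H3K4me3 were covered in 164 of the 264 domains (62.1%) in which H3K27me3 rose by 50 points or more, against 53.1% of all 896. From XX progenitors to pregranulosa cells they were covered in 146 of 258 (56.6%), against 73.2% of all 896. Between Sertoli and pregranulosa cells, H3K4me3 was lower in Sertoli cells in 69.5% of the 128 domains with at least 50 points more H3K27me3 there, and in 71.1% of all domains. H3K4me3 depth differed between these lists too, and its part in the counts was not tested.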

How the data were processed

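Chromatin was cut with MNase and precipitated with Drosophila chromatin as carrier. Per the submitters' processing notes, the authors trimmed reads with Trim Galore, used Bowtie (mm9) for alignment and SAMtools for its output, and then HOMER for peaks. Per the file headers, findPeaks ran with its histone settings. Peaks were 5000 bp (H3K27me3) or 1000 bp (H3K4me3), needed 4 times the tags of the H3 input and of their surroundings, and had a Poisson p-value threshold of 1.00e-04 for both. The deposited lists pool both replicates of a mark in a population. The pregranulosa lists carry no header. Their score column, the 5th, holds the same value in every peak and was not used, so no measure of enrichment is available and only presence and width were used. The deposited positions count from 0 and are printed here from 1.

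Overlapping peaks were joined within each list, and those of at least 30 kb on chromosomes 1 to 19 merged over the 4 lists. Genes were those of GENCODE M1 (NCBIM37), with the TSS of the gene's 5′ end, and a mark at a TSS overlapped a window of 2 kb on either side. Python 3.11.15, numpy 2.4.6, scipy 1.17.1 and matplotlib 3.10.9 were used. Shares carry exact Clopper-Pearson 95% intervals. The code that joins and overlaps regions was tested on simulated regions. With 1 pooled list per condition, no test between populations was run.

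Domains named in the text were the 20 widest, those with a gene of the gonad list, the 3 widest in 1 population and no other, the 5 with the most H3K4me3 islands, the 5 widest without a protein-coding TSS, the 5 largest rises and falls in each lineage and between the E13.5 populations, and the 3 regions on each side of the threshold. Any gene of a fixed list with its TSS in a domain could also be named. The members and the gene lists were chosen with earlier results of these data known. The sex-specific lists name 1408 and 1164 genes, of which 1327 and 1072 matched an autosomal gene, and only membership was used. Sequences came from the 200 bases before a TSS, not around it as first planned, or from a domain's centre. Some genes of the lists are not reported here. Alternatives are given below.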

Additional observations from a re-analysis of the deposited data

How the results depend on the processing

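No paired analysis was possible because each list pools both replicates of its group. Of 133 values of 15 results recomputed under 13 alternatives, 62 stayed within the interval of the share or within 1.5 times the count, and 71 moved. Without the XY progenitor list all values stayed. In each list below the populations are XY progenitor, XX progenitor, Sertoli and pregranulosa. The causes were not tested beyond what a setting itself removes or adds.

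A minimum width of 20 kb gave 2003 domains, from 630, 624, 1446 and 1236 regions. Of these, 39.99% were marked over 50% or more in all populations, 49.3% held a protein-coding TSS, and 78.5%, 86.4%, 74.0% and 84.5% held an H3K4me3 island. A minimum of 40 kb gave 471 domains, from 130, 125, 353 and 274 regions, with 51.4%, 62.0%, and 94.1%, 96.4%, 85.8% and 95.3%. Joining peaks within 5 kb gave 1426 domains, with 388 regions in XY progenitors and 1085 in Sertoli cells, 32.0% marked over 50% or more in all populations, and both marks at 74.5% and 74.2% of TSSs in XX progenitors and pregranulosa cells. Adding chromosome X gave 673 regions in XX progenitors and 882 in pregranulosa cells, 31.8% marked over 50% or more in all populations, islands in 75.3%, 78.0%, 70.2% and 77.4% of domains, and both marks at 49.6%, 72.8%, 49.7% and 73.2% of TSSs.

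Without the pregranulosa list, 58.3% were marked over 50% or more in all populations, 63.4% held a protein-coding TSS, and 91.4%, 95.9%, 83.6% and 93.7% held an island. Domains of 30 kb in at least 2 lists numbered 348, with 82.5%, 73.9%, islands in 95.7%, 98.0%, 90.2% and 97.4%, and both marks at 76.7%, 86.0%, 76.3% and 84.7% of TSSs. With the TSS of any transcript, 60.9% of domains held a protein-coding TSS.

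The planned use of the widest 75% of H3K4me3 regions became those wider than the lower quartile, since many regions tie at 1001 bp. This kept 51.8%, 74.8%, 68.3% and 68.8% of the regions. Islands were then in 69.4%, 87.4%, 69.3% and 79.7% of domains, and both marks at 60.4%, 65.5% and 75.4% of TSSs in XY progenitors, Sertoli and pregranulosa cells. With a window of 1 kb on either side, both marks were at 68.0%, 69.1% and 75.03% in those 3 populations, and at the TSS base at 57.7%, 71.3%, 60.9% and 68.1% in all 4.

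The lists carry no enrichment values and no replicate spread, and depth differed by population, so a narrower domain in a shallower list cannot be told apart from a narrower mark.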

Other observations

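Chromosome X was left out of the domains by the rule and was marked very unevenly between the sexes. Joined regions of 30 kb or more on it numbered 3 (XY progenitors), 418 (XX progenitors), 5 (Sertoli) and 324 (pregranulosa). In the same order, H3K27me3 covered 1.19, 61.6, 1.95 and 43.1 Mb of the chromosome, and the widest region was 40000, 1431080, 65163 and 1009670 bp. Merged by the same rule, chromosome X held 411 domains of 49.7 Mb with 482 of its 932 protein-coding TSSs (51.7%). Within 2 kb of those 482, H3K27me3 was present at 61, 482, 53 and 472, and both marks at 58, 301, 50 and 297.

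Repeated genes made up 2 unusual domains. At chr8:126057553-126160389, 51 of the 58 rRNA TSSs in all domains lay in 1 domain, annotated as 5S rRNA copies, and 92.5%, 93.8%, 100% and 96.5% of it was marked. At chr14:54774032-54830250, 52 J-segment genes lay in a domain marked over 0%, 0%, 59.6% and 100%. Reads may be split or shared between such copies, so their calls are uncertain.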
